A study of Rattus norvegicus with 13 samples.

Results

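Vomeronasal receptors were examined in fat of adult female rats whose fathers had eaten either a high-fat diet or chow. The members are every gene of the array's annotation whose symbol begins with Vom1r or Vom2r, each read from an array feature that lists a single gene symbol, with the feature of highest mean kept where a gene had more than 1. This gave 135 of the 14506 genes measured, 83 of them type 1 (Vom1r) and 52 type 2 (Vom2r). The annotation listed 176 features with 152 vomeronasal symbols. Of these features, 143 carried 1 symbol and 33 carried several, and 17 symbols occurred only on features of the latter kind and are not members. One member, Vom2r-ps45, is a pseudogene.

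The study asked whether a father's diet alters gene expression in his daughters' fat. Sprague Dawley males ate either pellets with 43% fat or chow with 9% fat and, when 15 weeks old, were paired with chow-fed females. Their daughters ate chow from weaning at 3 weeks, and fat was taken at 14 weeks of age, with 7 daughters of chow-fed (control) fathers and 6 daughters of high-fat-fed fathers on 1 Affymetrix array each. No daughter ate the high-fat diet herself, and no genetic alteration is named for either group. The labels do not say which daughters shared a father or litter, so the p-values treat each daughter as independent and may rest on fewer families.

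Vomeronasal receptors are G protein-coupled receptors of the sensory neurons of the vomeronasal organ, a chemosensory organ in the nasal cavity that detects pheromones and other social cues. Type 1 receptors are carried by apical neurons that signal through the G protein subunit Gnai2, and type 2 receptors, which have a large extracellular ligand-binding domain, by basal neurons that signal through Gnao1. Both pathways end at the cation channel Trpc2. Rodent genomes hold these receptors in large clusters of recently duplicated copies, and fat is not a tissue they are known for.

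How alike such copies are was seen in their promoters. By gene ID 130 of the 135 members matched RefSeq genes of the GRCr8 assembly, and 119 of these, 71 type 1 and 48 type 2, had a promoter window of 300 bases, most of it before and the rest just after the gene's start. In 11 members this window was identical at 240 or more of its 300 places to that of another member. Vom1r53 and Vom1r54, both type 1 receptors, shared 289 of 300 bases, although Vom1r53 lies at chr1:81898993-81899292 on the plus strand and Vom1r54 at chr1:81916779-81917078 on the minus strand. They are shown as the closest pair that holds one of the brightest members, 5′ to 3′ on each gene's own strand, with capitals at the 11 places that differ.
Vom1r53: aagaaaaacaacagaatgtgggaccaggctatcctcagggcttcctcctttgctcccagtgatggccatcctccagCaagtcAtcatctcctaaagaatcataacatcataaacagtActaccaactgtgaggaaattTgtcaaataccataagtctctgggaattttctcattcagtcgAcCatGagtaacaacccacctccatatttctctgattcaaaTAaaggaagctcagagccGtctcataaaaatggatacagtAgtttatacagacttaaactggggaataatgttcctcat
Vom1r54: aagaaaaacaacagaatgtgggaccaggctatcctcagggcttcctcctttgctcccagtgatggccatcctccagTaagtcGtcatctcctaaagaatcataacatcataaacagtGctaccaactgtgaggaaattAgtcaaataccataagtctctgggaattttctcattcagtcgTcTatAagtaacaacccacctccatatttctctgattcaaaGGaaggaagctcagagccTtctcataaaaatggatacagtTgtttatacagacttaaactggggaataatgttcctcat

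The type 2 receptors Vom2r65, at chr1:637138-637437, and Vom2r6, at chr1:3025673-3025972, both on the plus strand, shared 287 of 300 bases. They are shown because Vom2r65 was among the brightest members, with capitals at the 13 places that differ.
Vom2r65: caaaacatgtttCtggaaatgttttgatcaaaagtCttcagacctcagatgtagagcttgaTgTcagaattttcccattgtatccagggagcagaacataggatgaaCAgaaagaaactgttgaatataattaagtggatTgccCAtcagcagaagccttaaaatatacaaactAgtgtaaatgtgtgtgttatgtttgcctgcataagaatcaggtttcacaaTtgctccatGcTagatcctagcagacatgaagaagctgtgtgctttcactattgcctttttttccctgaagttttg
Vom2r6: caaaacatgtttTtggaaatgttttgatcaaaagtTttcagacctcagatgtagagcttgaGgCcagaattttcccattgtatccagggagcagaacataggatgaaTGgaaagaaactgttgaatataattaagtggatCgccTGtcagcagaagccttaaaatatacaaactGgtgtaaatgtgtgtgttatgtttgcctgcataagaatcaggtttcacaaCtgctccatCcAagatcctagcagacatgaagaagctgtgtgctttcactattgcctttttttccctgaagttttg

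Vom1r66, at chr4:87618343-87618642, and Vom1r67, at chr4:87597649-87597948, both on the plus strand, shared 283 of 300 bases. They were picked after the values were seen, because their differences between the groups of daughters had opposite signs. That of Vom1r66 was only 0.03 ± 0.11 (SE, high-fat minus control), and its sign changed in some of the fits below. Capitals mark the 17 places that differ.
Vom1r66: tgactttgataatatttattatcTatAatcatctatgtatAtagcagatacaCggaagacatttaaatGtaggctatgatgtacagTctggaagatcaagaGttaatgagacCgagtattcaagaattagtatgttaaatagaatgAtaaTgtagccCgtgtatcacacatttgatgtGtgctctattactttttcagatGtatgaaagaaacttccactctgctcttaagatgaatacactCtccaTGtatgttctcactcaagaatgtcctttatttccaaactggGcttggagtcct
Vom1r67: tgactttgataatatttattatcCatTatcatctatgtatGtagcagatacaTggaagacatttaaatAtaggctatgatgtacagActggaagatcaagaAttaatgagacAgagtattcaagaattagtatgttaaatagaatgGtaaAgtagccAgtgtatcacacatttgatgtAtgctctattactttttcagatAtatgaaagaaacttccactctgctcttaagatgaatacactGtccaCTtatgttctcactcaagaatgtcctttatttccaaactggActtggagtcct

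The windows of the types differed in composition. The median GC content was 33.7% in type 1 and 38.7% in type 2, against 52.3% over all 27457 promoters of the RefSeq table. The letters TATAAA, searched on both strands, occurred in 35 of 71 type 1 windows (49.3%), in 13 of 48 type 2 windows (27.1%) and in 14.3% of all promoters. The letters CCCNNGGG, which read the same on both strands, occurred in 0 of 71 type 1 windows, in 7 of 48 type 2 windows and in 12.7% of all promoters. These matches describe the letters of the windows and mark no binding site. Vom1r100, the member with the smallest p in the comparison of fathers' diets, holds TATAAA on its minus strand, where it reads as the capitals TTTATA in the window at chr4:124025125-124025424, printed on the plus strand.
Vom1r100: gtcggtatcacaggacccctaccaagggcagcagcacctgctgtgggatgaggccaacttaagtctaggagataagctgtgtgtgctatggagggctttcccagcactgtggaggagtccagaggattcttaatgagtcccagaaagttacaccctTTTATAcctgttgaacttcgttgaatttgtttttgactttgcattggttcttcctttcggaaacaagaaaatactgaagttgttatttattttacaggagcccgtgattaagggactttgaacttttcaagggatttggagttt

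Levels are the deposited log2 signals of each array. The members' means over the 13 arrays ran from 3.49 to 7.82 with a median of 5.03, against a median of 8.14 over all genes, and 0 of the 135 lay above the middle of all genes' means. In type 1 they ran from 3.49 to 7.60 (median 5.13) and in type 2 from 3.66 to 7.82 (median 4.92). The mean was under 5.5 in 98 members and 6.5 or more in 14. Features differ in probe affinity and background, so these levels do not rank the transcripts, and whether a member is above background is not known from these values. Sry, a Y-linked gene and so a reference in females, read 6.38 to 6.62.

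The members varied more between arrays than most genes. Their standard deviation over the 13 arrays had a median of 0.25 log2 units and ran from 0.05 to 0.56, against a median of 0.15 over all genes. It was above 0.4 in 14 members and below 0.15 in 19. The lowest mean among type 1 receptors, that of Vom1r89, came with the smallest spread, 3.43 to 3.60 in control daughters and 3.42 to 3.53 in high-fat daughters. Vom2r29, the type 2 receptor of lowest mean, read 3.58 to 3.76 in control and 3.44 to 3.87 in high-fat daughters. These receptors, chosen for their means after the values were seen, overlapped between the groups.

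The diet comparison asked whether receptors read differently in daughters of high-fat-fed fathers. None of the 135 members passed an adjusted p of 0.05 in limma, where 0.0% of all genes passed, and the members' adjusted p ran from 0.53 to 0.98. The receptors nevertheless lay on one side: the mean of the high-fat group was below that of the control group in 128 of 135 (94.8%), in 81 of 83 type 1 receptors (97.6%) and in 47 of 52 type 2 receptors (90.4%), where 42.0% of all genes lay lower. The median difference, high-fat minus control, was -0.16 log2 units over the members, with a range of -0.56 to 0.16, against 0.03 over all genes. It was -0.18 in type 1 (quartiles -0.25 and -0.12) and -0.12 in type 2 (quartiles -0.19 and -0.06). Whether the types differ was not tested.

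An unadjusted p under 0.05 was reached in limma by 11 members (8.15%), where 7.96% of all genes reached it, so the share of members was near the background. All 11 lay lower, where 2.54% of all genes were lower at that p. They were 9 type 1 receptors, Vom1r100, Vom1r15, Vom1r74, Vom1r106, Vom1r96, Vom1r82, Vom1r28, Vom1r95 and Vom1r62, and 2 type 2 receptors, Vom2r52 and Vom2r56. In 0 members did every high-fat array read below every control array, where this held for 0.0276% of all genes. All 6 high-fat arrays lay below the control mean in 18 members, 5 of 6 in 71 and 4 of 6 in 39. These 3 counts were not made over all genes. The control mean includes control 658, the highest array in 96 of the 135 members. The count of 11 moved as single arrays were left out, and so did the share of all genes at that p. Without control 658 the count was 2 (1.48%) where 4.7% of all genes reached it, and without high-fat 660 it was 45 (33.3%) where 17.3% did. It was 3 without high-fat 619 or 624 (all genes 4.07% and 3.5%), 4 without control 631 or high-fat 629 (4.92% and 8.57%), 5 without high-fat 620 (4.09%) and 6 without control 664 (7.05%). It was 14 without control 627 (7.44%), 16 without control 662 (8.71%), 17 without control 656 (9.8%), 18 without high-fat 663 (8.21%) and 23 without control 622 (12.2%). The median difference without control 658 was -0.09. After a renewed quantile normalization it was also -0.09 (-0.10 in type 1 and -0.05 in type 2), with 115 of 135 lower where 38.8% of all genes were, and 10 members, 8 lower and 2 higher, had an unadjusted p under 0.05 where 6.75% of all genes did. Other chemosensory receptors gave medians of -0.22 over 1105 olfactory receptors and -0.14 over 43 taste and trace amine receptors. In bulk fat, fewer cells of a type and less RNA per cell cannot be told apart. Whether the members read above background at all is not known.

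The readings moved together by array. The array of control daughter 658 was the highest of the 13 in 96 of the 135 members (71.1%), against 19.6% of all genes and 78.0% of olfactory receptors. High-fat daughter 660 was highest in 15 members and control daughter 631 in 12, so that 123 members (91.1%) were highest in one of these 3 arrays, against 29.2% of all genes. The lowest reading came from high-fat daughter 619 in 35 members, 620 in 29, 629 in 24 and 624 in 22, together 110 members (81.5%), against 26.7% of all genes. These 3 high arrays had the smallest standard deviation over all features of the array, 1.78 in 658, 1.86 in 631 and 1.86 in 660, while the others ran from 1.90 to 1.96. They were also the 3 highest in 67 members (49.6%), against 8.40% of all genes.

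The members' mean level on each array ran in nearly the same order. It was 5.72 in 658, 5.47 in 631 and 5.43 in 660, and in the other arrays it ran from 5.01 to 5.29. The 4 high-fat arrays 619, 620, 624 and 629 were the lowest, at 5.01 to 5.04. Over the groups the mean level was 5.29 ± 0.23 (SD, n = 7) for control fathers' daughters against 5.12 ± 0.18 (SD, n = 6) for those of high-fat fathers, and the ranges, 5.10 to 5.72 and 5.01 to 5.43, overlapped. For type 1 it was 5.34 ± 0.24 against 5.15 ± 0.19, and for type 2 5.22 ± 0.20 against 5.08 ± 0.16. The type 1 mean exceeded the type 2 mean by 0.09 to 0.19 (median 0.11) on control arrays and by -0.01 to 0.11 (median 0.08) on high-fat arrays.

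**Figure D1:**
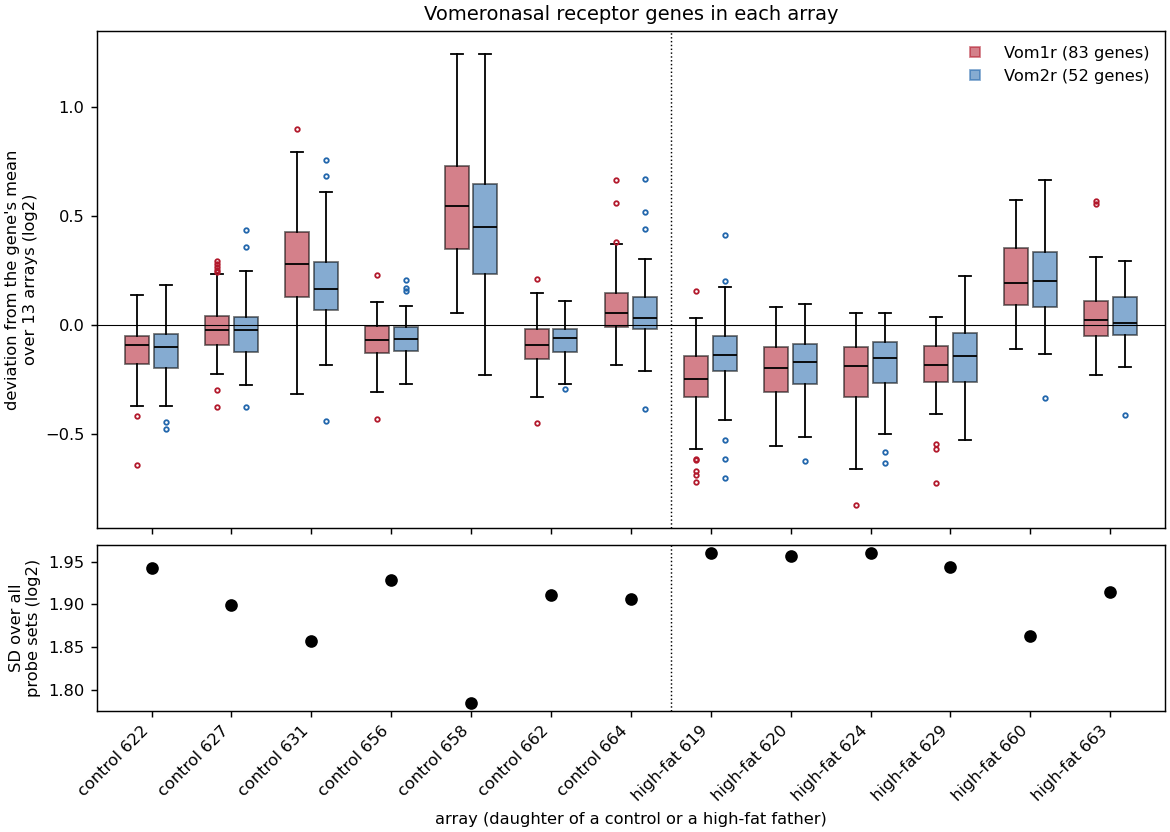
Difference of each vomeronasal receptor from its own mean over the 13 arrays (log2 units, vertical axis) on each array, as boxes of median and quartiles for type 1 and type 2, whiskers to the furthest gene within 1.5 box lengths and circles beyond; the lower panel gives the standard deviation over all features of each array. Control 658, control 631 and high-fat 660, the arrays of smallest standard deviation, stand highest.

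The same comparison was therefore also computed with each array's standard deviation as a covariate. The median difference was then 0.01 over the members, 0.01 in type 1 and 0.03 in type 2, and 56 of 135 (41.5%) lay lower, where 48.3% of all genes did. An unadjusted p under 0.05 was reached by 4 members (2.96%), 1 lower and 3 higher, where 2.81% of all genes reached it. The covariate itself was unevenly spread over the fathers' diets. It averaged 1.89 on control arrays but 1.93 on high-fat arrays, and its largest values belonged to high-fat 629, 620, 624 and 619. Because the covariate overlaps with diet, the median near 0 in this fit cannot separate the diet from the array's standard deviation. Without the 3 arrays of smallest standard deviation the median was -0.09, with 120 of 135 lower (88.9%) where 48.7% of all genes were, and 21 members (15.6%) had an unadjusted p under 0.05 where 9.62% of all genes did. In that fit too, all 21 lay lower.

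The daughters' numbers fall into 2 ranges, whose meaning the labels do not give. Among daughters 619 to 631, with 3 control and 4 high-fat arrays, the median difference was -0.21 (-0.24 in type 1, -0.16 in type 2), and 125 of 135 members lay lower (92.6%), where 44.1% of all genes did. Here 54 members (40.0%), all lower, had an unadjusted p under 0.05, where 13.7% of all genes did. Among daughters 656 to 664, with 4 control and 2 high-fat arrays, the median was 0.02 (0.00 in type 1, 0.06 in type 2), and 60 members lay lower (44.4%), where 41.5% of all genes did. There 1 member (0.74%), with a higher mean, reached an unadjusted p under 0.05, where 0.931% of all genes did. Most members thus lay lower in the first range, and fewer of them in the second. The difference between the ranges was not tested.

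**Figure D2:**
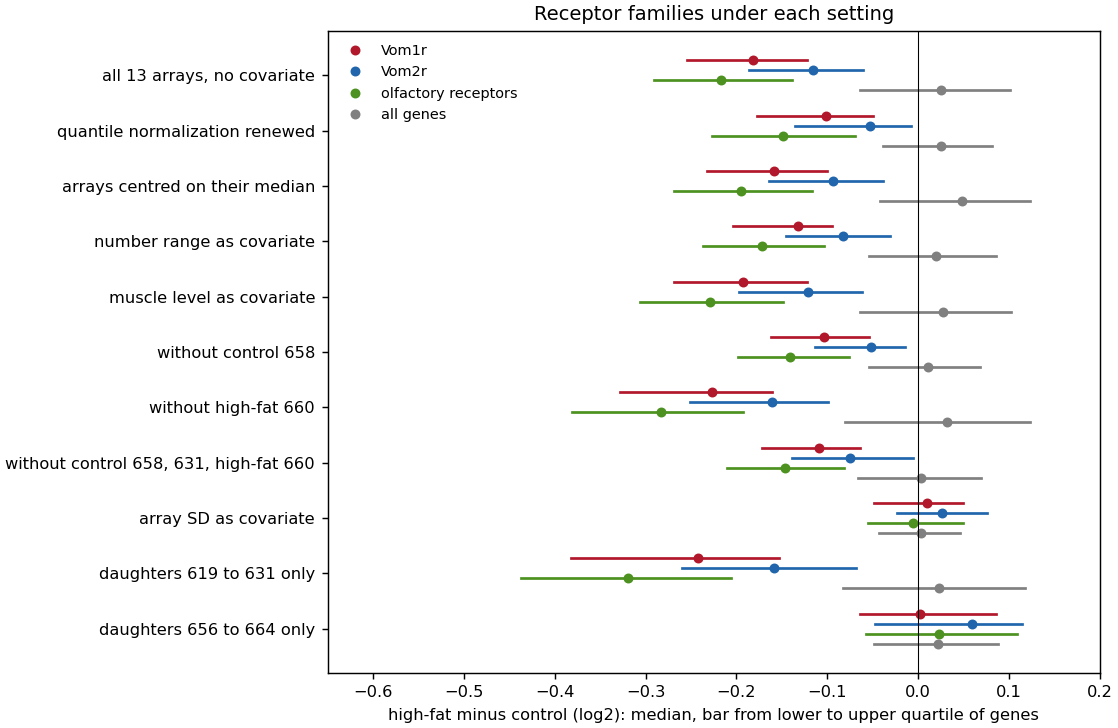
Median difference between groups (log2 units, high-fat minus control, horizontal axis) over type 1, type 2 and olfactory receptors and all genes for each way of computing the comparison; points are medians and bars run from the lower to the upper quartile of genes. The receptors' medians lie left of 0 with all 13 arrays and near 0 with the array's standard deviation as a covariate or among daughters 656 to 664.

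The median difference lay further below 0 in the brighter members. Those with a mean under 4.5 had a median difference of -0.09 with 26 of 27 lower, and those from 4.5 to 5.5 one of -0.14 with 67 of 71 lower. From 5.5 to 6.5 it was -0.21 (22 of 23 lower), and at 6.5 or more -0.25 (13 of 14 lower). Genes of no chemosensory receptor family in the same ranges of level had medians of -0.07, -0.07, -0.06 and 0.05. Dim genes of other kinds were thus also mostly lower, at 75%, 85.0% and 79.4% in the first 3 ranges, but at 30.8% in the brightest. That brightest range has no upper limit, so its 11680 other genes are not matched in level to the members, which end at 7.82. Olfactory receptors had medians of -0.09, -0.20, -0.24 and -0.23 in the 4 ranges, so the trend was not particular to the members. The medians of type 1 and type 2 were -0.14 and -0.07 in the dimmest range, -0.17 and -0.12 in the next and -0.22 and -0.18, the latter over 4 members, from 5.5 to 6.5. In the brightest range, which held 7 of each, they were -0.25 and -0.24.

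**Figure D3:**
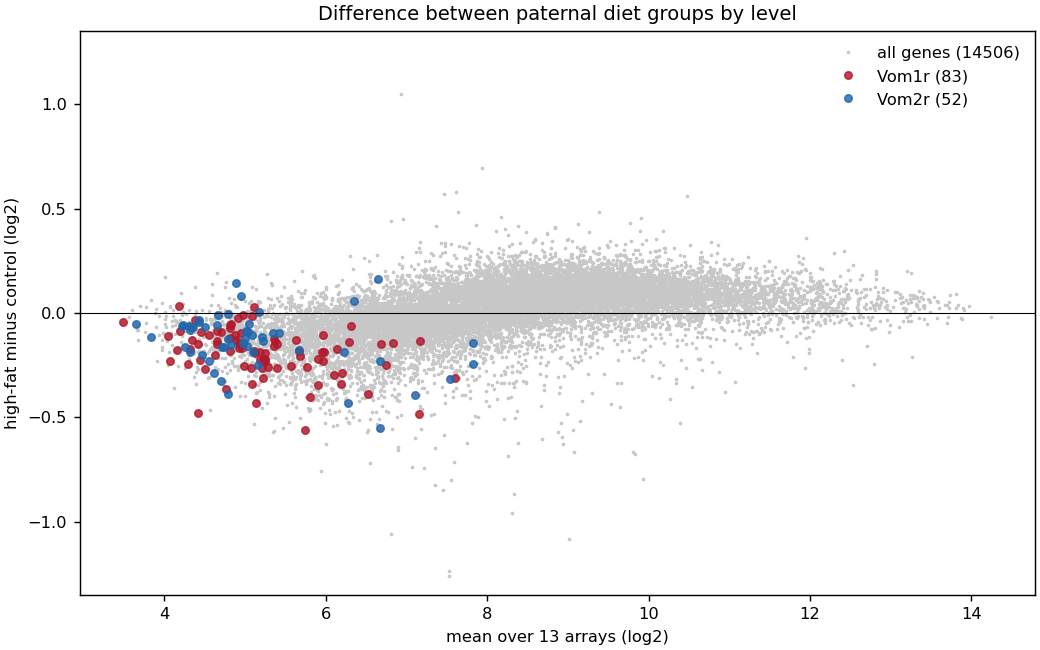
Mean level over the 13 arrays (log2 signal, horizontal axis) against the difference between groups (log2 units, high-fat minus control, vertical axis) for all genes, with type 1 and type 2 receptors marked. The receptors lie at means of 3.49 to 7.82 and mostly below 0, further below it at the brighter end.

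The brightest members, receptors whose ligands are not described here, showed the pattern singly. Vom2r65, a type 2 receptor, read 7.45, 7.89 and 8.43 (lowest, median and highest) in control and 7.45, 7.59 and 8.24 in high-fat daughters. Its highest readings came from 658, 631 and 660, the groups overlapped almost wholly, and the difference was -0.24 ± 0.17 (SE). Its copy Vom2r6, printed above beside it, was dimmer and read 4.32, 4.43 and 5.56 in control and 4.04, 4.30 and 5.10 in high-fat daughters, a difference of -0.23 ± 0.22. Near-identical copies can share hybridised RNA, so their readings may not be independent. Only the promoter windows of these genes were compared, and sharing of RNA between their features was not tested.

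Vom1r105, the brightest type 1 receptor, read 7.47, 7.52 and 8.45 in control and 7.18, 7.32 and 8.02 in high-fat daughters. The same 3 arrays were highest, and 4 high-fat arrays lay below every control array, with a difference of -0.31 ± 0.18. Vom2r35, of type 2, read 7.27, 7.54 and 8.37 against 7.05, 7.32 and 7.76, again highest in 658, 631 and 660. Vom1r63, of type 1, read 6.91, 7.08 and 8.25 against 6.44, 6.68 and 7.64, and its difference of -0.48 ± 0.25 was the largest among the 8 brightest members. Vom2r13, of type 2, read 6.91, 7.11 and 8.16 against 6.57, 6.74 and 7.48, with a difference of -0.39 ± 0.22. In all 4 the groups overlapped, through the readings of 660 and 663, and in Vom2r35 also of 619.

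Other bright members differed little. Vom2r16, the member of highest mean, read 7.67, 7.88 and 8.18 in control and 7.38, 7.78 and 8.09 in high-fat daughters, with control 627 and not 658 highest and a difference of -0.14 ± 0.12. Vom1r51 read 6.84, 7.23 and 7.72 against 6.95, 7.04 and 7.44, a difference of -0.14 ± 0.12. Vom1r53 read 6.63, 6.80 and 7.34 against 6.46, 6.77 and 7.02. Its difference of -0.14 ± 0.12 was near that of its copy Vom1r54, -0.13 ± 0.11, whose promoter differs at the 11 capitals shown above. The groups overlapped in each.

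**Figure D4:**
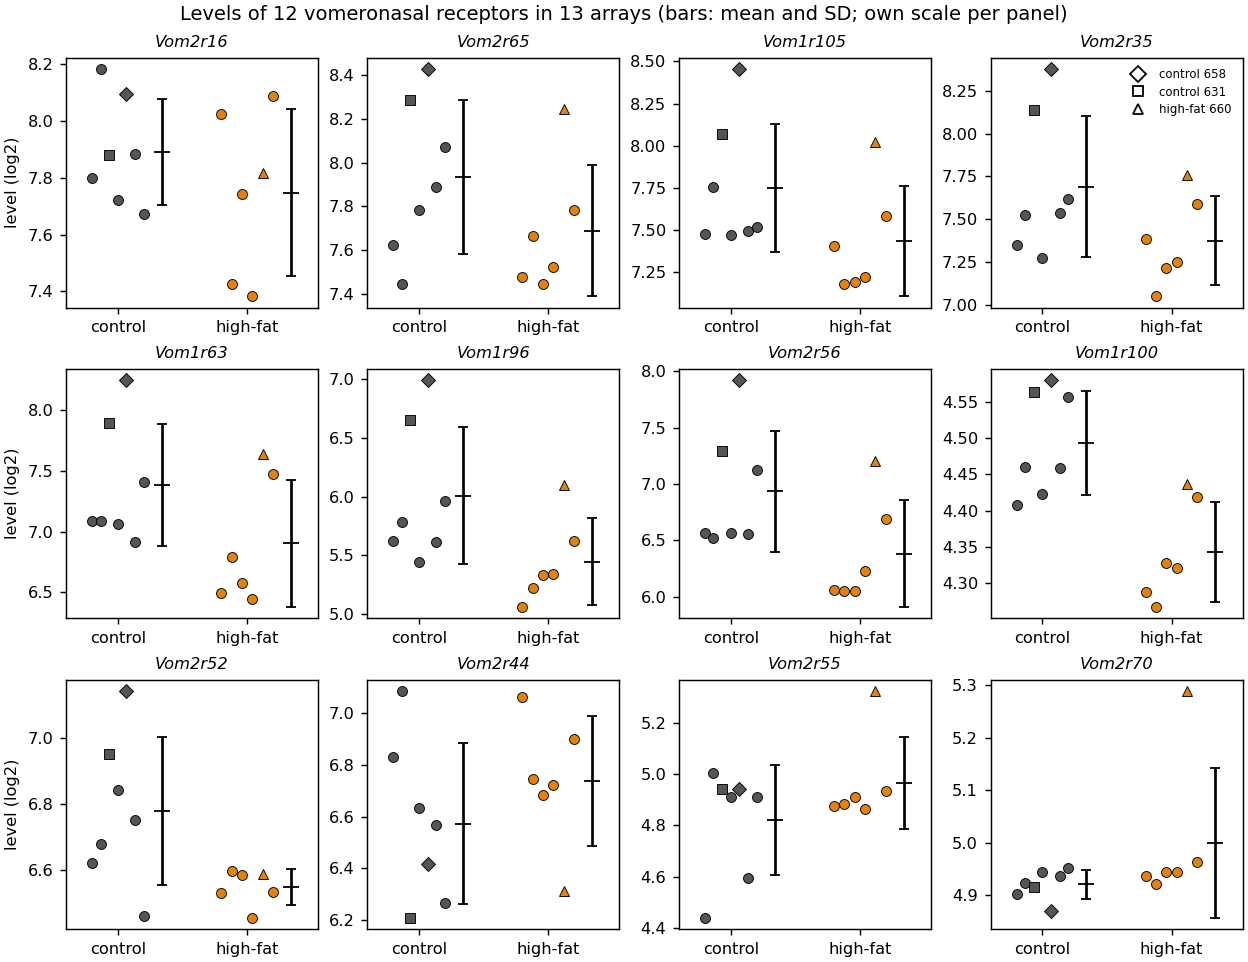
Log2 signal (vertical axis) of named vomeronasal receptors on each array, with control and high-fat daughters side by side, separate symbols for 658, 631 and 660, and a bar of mean and SD beside each group; each panel has its own scale. The groups overlap in each receptor drawn.

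Among the lower members of smallest p, Vom1r100 had the tightest readings, 4.41, 4.46 and 4.58 in control and 4.27, 4.32 and 4.44 in high-fat daughters. Only 660 and 663 of the high-fat arrays reached the control range, and the difference was -0.15 ± 0.05. Vom2r52, a type 2 receptor, read 6.46, 6.75 and 7.14 in control and 6.45, 6.56 and 6.60 in high-fat daughters, a difference of -0.23 ± 0.09. The control arrays spread widely there, while the high-fat arrays lay close together. Vom1r15 read 4.87, 5.22 and 5.80 against 4.42, 4.90 and 5.42, with control 664 highest and a difference of -0.43 ± 0.18. Vom1r74 read 5.04, 5.32 and 5.53 against 5.0, 5.17 and 5.28, and Vom1r106 read 6.31, 6.71 and 7.15 against 5.87, 6.29 and 6.92. Their differences were -0.19 ± 0.08 and -0.39 ± 0.17, and the groups overlapped in both.

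The members of largest spread were also set apart by the same arrays. Vom1r96, a type 1 receptor, read 5.44, 5.79 and 6.99 in control and 5.06, 5.34 and 6.10 in high-fat daughters, and its difference of -0.56 ± 0.25 was the furthest below 0 of all members. Vom2r56, of type 2, read 6.52, 6.57 and 7.92 against 6.05, 6.15 and 7.21, a difference of -0.55 ± 0.25. Vom2r72, of type 2, read 6.08, 6.33 and 7.33 against 5.58, 5.89 and 6.95, a difference of -0.43 ± 0.25. Its feature holds the same values on all 13 arrays as a feature that lists Vom2r73 and Vom2r72, so this reading cannot be assigned to Vom2r72 alone. In each, 658 was highest, 631 next and 660 after it.

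The 7 members with a higher mean in high-fat daughters were 5 of type 2 and 2 of type 1. Vom2r44 read 6.21, 6.57 and 7.08 in control and 6.31, 6.73 and 7.06 in high-fat daughters, a difference of 0.16 ± 0.14. It ran against the other receptors, lowest in 631 and low in 664, 660 and 658. Vom2r55 read 4.44, 4.91 and 5.0 against 4.86, 4.90 and 5.33, and Vom2r70 read 4.87, 4.92 and 4.95 against 4.92, 4.94 and 5.29. In both, 660 alone stood above the rest. Vom1r66 read 3.87, 4.09 and 4.75 against 4.06, 4.20 and 4.34, a difference of 0.03 ± 0.11, while its copy Vom1r67, alike at 283 of 300 promoter bases, had one of -0.15 ± 0.08. Vom1r68, beside them in the same run, had a difference of 0.03 ± 0.13 and Vom2r36 one of 0.06 ± 0.10.

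Members typical of their type overlapped widely. Vom1r46, nearest the type 1 median, read 5.57, 5.66 and 6.20 in control and 5.28, 5.56 and 5.87 in high-fat daughters, a difference of -0.18 ± 0.12. Vom2r54, nearest the type 2 median, read 4.99, 5.22 and 5.52 against 4.86, 5.18 and 5.46, a difference of -0.11 ± 0.11. The pseudogene Vom2r-ps45, named after its values were seen, had a difference of -0.14 ± 0.13, inside the range of the intact genes.

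Members were also read by their place in the genome. In GRCr8 gene order 130 members were placed, and 121 lay next to another vomeronasal gene. In the longest run 20 members, Vom1r66 to Vom1r88, had a median difference of -0.18 with 18 lower, and in the next 10 members, Vom1r92 to Vom1r102, had one of -0.14 with all 10 lower. Runs of Vom1r6 to Vom1r12 and of Vom1r43 to Vom1r49, 6 members each, had medians of -0.22 and -0.21. The type 2 run Vom2r48 to Vom2r52, 5 members, had one of -0.19. The run of Vom1r2 to Vom1r5 with Vom2r11, also 5 members, had the median nearest to 0, -0.09. The members of these 4 runs all lay lower. Over all members 94.8% lay lower, and over all genes 42.0%, so the counts in the runs were near the members' own share.

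Members read by more than 1 feature agreed in direction between features. All 6 such members had every feature lower in high-fat daughters, among them Vom2r56 with -0.55, -0.49 and -0.36 and Vom1r34 with -0.26, -0.24 and -0.40. Over all members 94.8% lay lower, so such agreement was likely beforehand. The second feature of Vom2r13 was far dimmer than the first, 4.14 against 7.10, and differed by -0.16 against -0.39. Of the 33 features that list several receptors, 1 holds the values of Vom2r72 named above. The other 32 had a median difference of -0.38, and all 32 lay lower. Of these, 28 were highest in 658, and 0 of the 33 had an unadjusted p under 0.05 in limma. For comparison, 42.0% of the 14506 genes lay lower and 19.6% were highest in 658. In a fit over all features, 1142 of those genes reached that p. The shares over all features were not computed.

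The genes through which the receptors signal lay on both sides. Of 15 transduction genes 13 were measured, and Trpc2 and Ano2 are not analysed here. None had an unadjusted p under 0.05 in limma, 6 lay lower and 7 higher, and their median difference was 0.03. Gnai2, the type 1 partner, read 12.34 ± 0.10 (SD, n = 7) against 12.39 ± 0.11 (SD, n = 6), control first. Gnao1, the type 2 partner, read 10.07 ± 0.24 and 10.27 ± 0.32, and both genes are also used outside sensory neurons. Omp, the marker of mature olfactory and vomeronasal neurons, read 7.11 ± 0.11 and 7.02 ± 0.09, and Plcb2, a phospholipase, differed by -0.02 ± 0.08. Kcnj3 differed by -0.19 ± 0.09 and Ano1 by -0.16 ± 0.10.

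Related lists gave the following. Of 9 transcription factors of sensory neuron development 7 were measured, 4 lower and 3 higher, with a median of -0.03. Ebf1, a factor also of fat cells, differed by 0.11 ± 0.07 and Neurod1 by -0.07 ± 0.06. Fpr1, a formyl peptide receptor, differed by -0.23 ± 0.09, with an unadjusted p of 0.030 in limma, and by -0.08 with the array's standard deviation as a covariate. Of 5 ligand and carrier genes 4 lay lower with a median of -0.18, and the median with the array's standard deviation as a covariate was 0.07. Among them Obp1f, an odorant-binding protein, differed by -0.20 ± 0.13 and Rup2 by -0.23 ± 0.19.

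Markers of the tissue were checked beside these results. The 7 adipocyte markers had a mean level of 12.38 to 12.64 in control and 12.34 to 12.83 in high-fat daughters. All 7 lay higher, where 8419 of 14506 genes did. These markers are bright, and of the 7253 genes above the middle of all genes' means 6123 lay higher. An unadjusted p under 0.05 in limma was reached by 3 of the 7 adipocyte markers, where 7.96% of all genes reached it. None passed an adjusted p of 0.05. The 6 vomeronasal neuron markers measured, 3 lower and 3 higher, had mean levels of 8.71 to 8.84 and 8.62 to 8.90, and 658 was the highest array in 1 of the 6, Tfap2e. Gnai2 and Gnao1, also used outside sensory neurons, had means of 12.36 and 10.16 over all arrays. Those of Gng8, Tfap2e, Omp and Gng13 were 8.33, 8.02, 7.07 and 6.69. Skeletal muscle genes ran from 7.25 to 12.06 and from 7.28 to 11.67, high in 662, 664, 629 and 619. The 5 T cell markers all lay lower (median -0.14), as did the 3 mesothelial markers (-0.42), where 42.0% of all genes did. The mesothelial differences had SEs of 0.25 to 0.34. The 3 endothelial markers lay higher (0.07), where 8419 of 14506 genes did. Of the T cell, mesothelial and endothelial markers, 1, the T cell marker Cd3d, had an unadjusted p under 0.05 in limma. The part of these cell types in the receptor readings was not tested. With the muscle score as a covariate the members' median difference was -0.17.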

How the data were processed

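Fat RNA of 13 daughters was hybridised to 1 Affymetrix array each. The values are log2 signals as deposited by the authors. The submitters' processing notes name RMA and Partek, without version or order. Of 29214 features 15633 were listed in GEO's platform annotation. Features with 1 symbol gave 14506 genes, with the feature of highest mean kept per gene. Groups were compared with limma 3.58.1 in R 4.3.3 on the log2 values, with all 13 arrays, no covariate and no filter on dim genes. P-values were adjusted by the Benjamini-Hochberg method over all genes, and the script was tested on simulated data. Detection calls were not used. Precision is limited by the number of arrays.

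Named members were those of highest mean overall and in each type, the 6 lower and 6 higher of smallest p, the 4 of largest spread and those nearest each type's median, with others named as chosen after their values were seen. The members, lists and tests were chosen with earlier results of these data known. Alternatives were the array's standard deviation, number range or a muscle score as covariate, array weights, centring, a renewed quantile normalization, an unmoderated test, each number range alone, and leaving out arrays. Promoter windows and gene order came from RefSeq GRCr8, matched by gene ID.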

Additional observations from a re-analysis of the deposited data

Results flagged for a closer look

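In 54 groups of readings of the named genes and list means, 4 held a sample far from the others of its group. Chance alone sets a sample apart in about 1 in 20 groups. In 3 of the 4 this was high-fat daughter 660. Vom1r51 read 7.44 there against 7.12 in the next high-fat array, a gap of 0.667 of the group's range. Vom2r55 read 5.33 against 4.93, a gap of 0.847 of the range, and Vom2r70 read 5.29 against 4.96, a gap of 0.886 of the range. In control daughter 664, Vom1r66 read 4.75 against 4.24 in the next control array, a gap of 0.575 of the range.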

How the results depend on the processing

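No paired analysis was possible because the groups share no sample numbers. The count of members lower in high-fat daughters, 128, was 56 with the array's standard deviation as a covariate and 60 among daughters 656 to 664. The count with an unadjusted p under 0.05, 11, was 4 with that covariate, 28 with array weights (15.0% of all genes), 5 after centring (9.78%), 3 with the number range as a covariate (4.21%), 5 in the unmoderated test (7.41%), 54 among daughters 619 to 631, 1 among daughters 656 to 664 and 21 without the 3 arrays of smallest standard deviation. Leaving out 1 array at a time gave 2 (without control 658) to 45 (without high-fat 660). It gave median differences of -0.21 to -0.09. A renewed quantile normalization gave a median of -0.09 in place of -0.16. The changes of sign listed next are only those among the 24 members named by mean, p, spread or nearness to a type's median. Other members changed sign too. With the standard deviation as a covariate the difference changed sign in Vom1r51 (0.059), Vom1r53 (0.030), Vom2r54 (0.040), Vom2r65 (0.0095) and Vom2r72 (0.0034). Among daughters 656 to 664 it did so in Vom1r105 (0.068), Vom1r106 (0.0023), Vom1r51 (0.0555), Vom1r63 (0.15), Vom1r66 (-0.057), Vom2r13 (0.084), Vom2r16 (0.11), Vom2r54 (0.14) and Vom2r72 (0.080). Among daughters 619 to 631 it did so in Vom1r68 (-0.15), and without the 3 arrays in Vom1r66 (-0.026). Leaving out 1 array gave -0.0175 to 0.128 for Vom1r66 and -0.081 to 0.074 for Vom1r68. The causes were not tested. A filter on dim genes, at the middle of all genes' means, left 0 members, so it gave no value.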

Other observations

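Photoreceptor genes, a sensory set of another organ, were read for comparison. Of 15 genes 14 were measured, 10 of them lower in high-fat daughters, with a median difference of -0.04. Over all genes 42.0% lay lower, and dim genes of no chemosensory receptor family were mostly lower, as given above. Only Opn1sw, the short-wave cone opsin, had an unadjusted p under 0.05 in limma, at -0.20 ± 0.08, where 7.96% of all genes did. Its adjusted p was 0.53.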
